A study of Mus musculus with 6 samples.

Results

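Brown and white fat marker genes were followed in mouse sciatic nerve RNA, as a list of 10 genes. Members were all probes whose symbol in the platform annotation is 1 of those genes. The brown fat markers were Ucp1, Cidea, Ppargc1a, Prdm16 and Dio2, and the general fat markers were Adipoq, Plin1, Lep, Retn and Cfd. Probes were named for 9 of the 10 genes, with 13 of the 45281 probes on the array. No probe is named Cfd in the annotation used, so Cfd, the gene of the complement protease adipsin, was not analysed here.

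The nerves came from mice at postnatal day 14, of both sexes. The 3 mutant arrays hold nerves of animals that carry P0-Cre and mutant Dicer, labelled "Dicer F or N". The 3 control arrays hold nerves of their littermates, titled "WT". P0 is the main protein of peripheral myelin, and its promoter drives Cre, the recombinase, in Schwann cells. Dicer cuts microRNA precursors to their mature form. The letters F and N, the genotype of the littermates, and whether an array holds 1 animal or a pool are not given in the sources used here, so p-values cover only the variation among these arrays, part of which may be technical.

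Brown adipocytes burn fatty acids for heat. Their mitochondria carry Ucp1, a channel that lets protons back across the inner membrane without making ATP, and cold, noradrenaline and thyroid hormone turn the program on through the coactivator encoded by Ppargc1a and the regulator encoded by Prdm16. White adipocytes store triglyceride in 1 large droplet and secrete hormones such as adiponectin and leptin. The outer connective sheath of sciatic nerve, the epineurium, holds adipocytes, and skeletal muscle lies beside the nerve.

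Ucp1 and Ppargc1a moved in opposite directions between mutants and controls, so the DNA before the RefSeq start site of each is shown. Each line gives 250 bases, 5′ to 3′ on the gene's strand, from RefSeq on GRCm38.p6. The Ucp1 stretch is chr8:83290098-83290347 on the plus strand, and the Ppargc1a stretch is chr5:51567726-51567975 on the minus strand. Capitals mark matches on either strand to TGACG, a partial cyclic AMP response element, or to AGGTCA, the core site of nuclear receptors.
Ucp1: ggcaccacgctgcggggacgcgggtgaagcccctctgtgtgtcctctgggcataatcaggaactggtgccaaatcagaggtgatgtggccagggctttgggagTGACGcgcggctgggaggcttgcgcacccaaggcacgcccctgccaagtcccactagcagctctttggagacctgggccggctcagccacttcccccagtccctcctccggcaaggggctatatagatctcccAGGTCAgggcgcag
Ppargc1a: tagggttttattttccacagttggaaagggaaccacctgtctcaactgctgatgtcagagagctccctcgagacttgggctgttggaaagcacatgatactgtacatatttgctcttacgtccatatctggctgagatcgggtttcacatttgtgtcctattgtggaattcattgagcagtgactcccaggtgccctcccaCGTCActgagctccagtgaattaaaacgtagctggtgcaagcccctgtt
Of the 10 members, 9 matched the promoter table, and Cidea did not. TGACG stood in the Ucp1 window at 147 bases before the start, and its reverse complement CGTCA in the Ppargc1a window at 49 bases before it. AGGTCA stood in the Ucp1 window at 14 bases before the start. Over all 32851 promoters of this length, 17.8% held TGACG and 14% held AGGTCA on either strand. The whole element TGACGTCA, which contains TGACG, was found in the window of 1 member, Dio2, at 95 bases before the start, and in 1.55% of all promoters. Such a match describes letters and is not evidence of a bound site.

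Values are the authors' normalized signals on a log2-like scale that runs from 7.96 to 15.91, with a median of 8.24 over all probes. Differences are mutant minus control on that scale. The 18420 brightest probes, by their mean over both groups, were tested together, which set the lowest mean tested at 8.34. Of the 9 genes, 6 passed that filter with 1 probe each, and all 6 passed it in the mutant mean and in the control mean alike. Over the tested probes, arrays correlated at 0.973 to 0.993 among mutants and 0.992 to 0.995 among controls.

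Of the 5 brown markers, 3 fell in mutant nerves (Ucp1, Cidea and Prdm16), 1 rose (Ppargc1a) and Dio2 stayed below the filter. Of the 4 general fat markers on the array, neither Adipoq nor Lep passed the test, and Plin1 and Retn stayed below the filter. So 4 of the 6 tested members were called at an adjusted p under 0.05, where limma called 35.8% of all tested probes, 15.9% as lower and 19.9% as higher. The groups did not overlap in the same 4 members, as in 52.1% of all tested probes, where mutants were the lower in 23.8% and the higher in 28.3%.

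**Figure D1:**
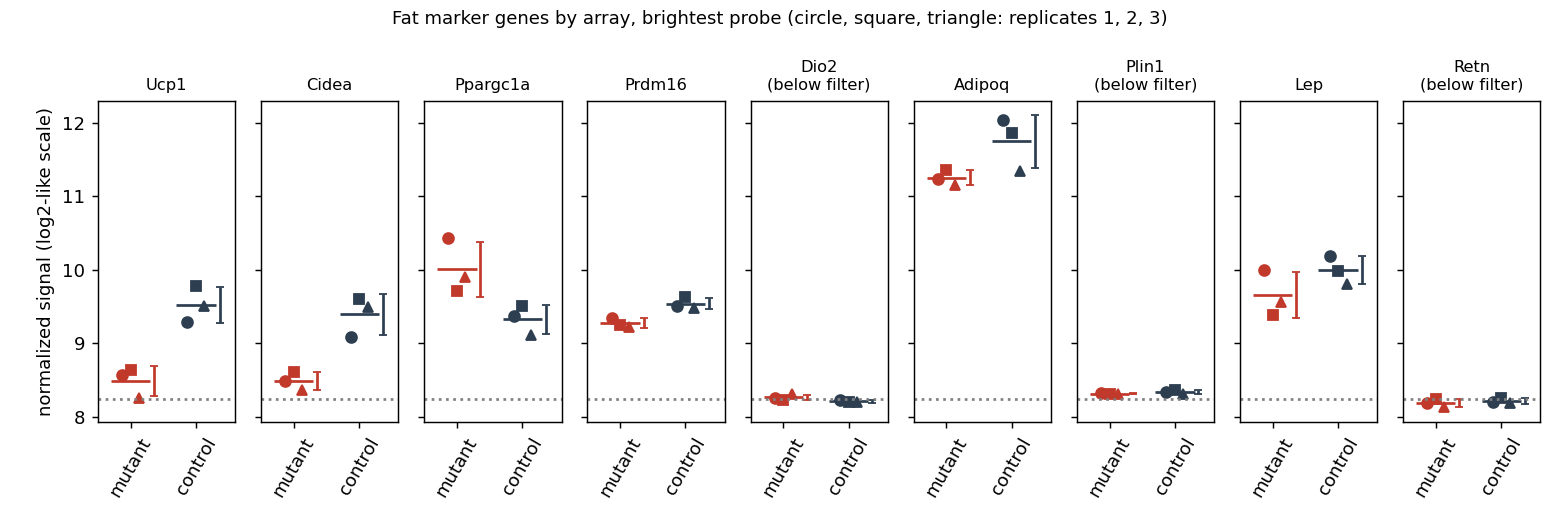
Normalized signal (log2-like scale) of the brightest probe of each of 9 fat marker genes, 1 panel a gene, with the 3 mutant arrays left and the 3 control arrays right; horizontal lines are group means, bars are SD, and the dotted line is the median of all probes, 8.24. Ucp1 and Cidea are lower and Ppargc1a higher on all mutant arrays, Adipoq and Lep overlap between the groups, and Dio2, Plin1 and Retn sit near the dotted line in both.

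Ucp1, the uncoupling protein that defines thermogenic fat, had 8.56, 8.64 and 8.26 on the mutant arrays, against 9.29, 9.78 and 9.50 on the control arrays. Every mutant array was below every control array, and mutant replicate 3 was close to the median of all probes. The difference was -1.04 (SE 0.149, limma adjusted p = 0.00228, 95% interval -1.40 to -0.68), and if the scale is plain log2 this is 2.06-fold. With a difference of at least 1 required as well, 2.44% of all tested probes were called lower. Ucp1 is the only member among them.

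Cidea encodes a lipid droplet protein that is enriched in brown adipocytes of the mouse. It had 8.49, 8.60 and 8.36 on the mutant arrays, against 9.08, 9.60 and 9.49 on the control arrays. The groups did not overlap, and the difference of -0.91 (SE 0.141, limma adjusted p = 0.00326) was close to that of Ucp1. Within each group the arrays kept the same order of highest and lowest in both genes. The lowest were mutant replicate 3 and control replicate 1, and the highest were replicate 2 of each group. Deviations from the own group mean had a Pearson r of 0.89 between Ucp1 and Cidea over the 6 arrays, which share their library and normalization across all genes. The other brown markers did not all go with them. Ppargc1a had r of 0.20 with Ucp1, -0.06 with Cidea and 0.91 with the general fat marker Lep. Prdm16 had r of 0.68 with Ucp1, 0.40 with Cidea and 0.84 with Ppargc1a.

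Prdm16, a zinc finger regulator that sets brown against muscle fate in precursors, changed least among the called members. Its brighter probe had 9.35, 9.25 and 9.22 on the mutant arrays, against 9.51, 9.63 and 9.48 on the control arrays. The groups were separated by a narrow gap, and the difference was -0.27 (SE 0.064, limma adjusted p = 0.0181). Leaving out mutant replicate 2 (adjusted p = 0.0614) or 3 (0.0508) ended the call, as did leaving out control replicate 1 (0.0535) or 2 (0.0631). The other Prdm16 probe was at 8.09 in mutants and 8.11 in controls, below the filter.

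Ppargc1a, the coactivator that drives mitochondrial biogenesis in brown fat and also in muscle, was the member that rose. It had 10.43, 9.71 and 9.90 on the mutant arrays, against 9.37, 9.50 and 9.12 on the control arrays. The lowest mutant array was above the highest control array, and mutant replicate 1 stood apart at the top. The difference was 0.68 (SE 0.195, limma adjusted p = 0.0343). Leaving out mutant replicate 3 ended the call (adjusted p = 0.0531), as did leaving out control replicate 1 (0.0905), 2 (0.0592) or 3 (0.113) and testing all probes (0.0962), where limma called 14.1% of probes. With array weights the difference was 0.40. The other Ppargc1a probe was at 8.05 in mutants and 8.07 in controls, below the filter.

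Dio2 encodes the deiodinase that makes active thyroid hormone inside brown adipocytes. Its brighter probe had 8.26, 8.23 and 8.30 on the mutant arrays, against 8.23, 8.20 and 8.19 on the control arrays. All these values lie within the dim end of the scale, and with all probes tested the difference of 0.06 was not called (limma adjusted p = 0.264). The other Dio2 probe was at 8.13 in mutants and 8.12 in controls.

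Adipoq, the gene of the adipocyte hormone adiponectin, was read well above the median of all probes in both groups. It had 11.24, 11.37 and 11.16 on the mutant arrays, against 12.04, 11.86 and 11.35 on the control arrays. Control replicate 3 lay within the mutant range, so the groups overlapped. The difference was -0.50 (SE 0.173, limma adjusted p = 0.0656), and the 95% interval ran from -0.91 to -0.08. With replicate number as a block Adipoq was called lower (adjusted p = 0.0356), and it was called lower as well without control replicate 3, at -0.70 (adjusted p = 0.00557), and with array weights (adjusted p = 0.0165).

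Lep, the gene of leptin, the hormone that reports fat stores, had 10.003, 9.39 and 9.57 on the mutant arrays, against 10.18, 9.99 and 9.80 on the control arrays. Mutant replicate 1 lay within the control range. The difference was -0.34 (SE 0.171, limma adjusted p = 0.171, 95% interval -0.75 to 0.07). Without mutant replicate 1 it was -0.51 and called lower (adjusted p = 0.0101), as it was with array weights, at -0.61 (0.00218).

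Plin1, the coat protein of the adipocyte lipid droplet, and Retn, the hormone resistin of mouse fat, were near the dim end of the scale on every array. The brighter Plin1 probe lay just under the filter, with a mean over all arrays of 8.32. It was at 8.31 in mutants and 8.33 in controls, and Retn was at 8.18 in mutants and 8.21 in controls. With all probes tested neither was called (limma adjusted p = 0.666 for Plin1 and 0.707 for Retn). The other Plin1 probe was at 8.13 in mutants and 8.14 in controls.

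The brown markers were then set beside the general fat markers on each array. The level of one probe cannot be compared with that of another, so every gene was taken as its deviation from the mean of the control arrays. Averaged over the 5 brown markers, the deviations were -0.18, -0.31 and -0.39 on the mutant arrays, against -0.10, 0.14 and -0.04 on the control arrays. Averaged over the 4 general fat markers, they were -0.14, -0.25 and -0.28 on the mutant arrays, against 0.12, 0.04 and -0.16 on the control arrays. The brown mean was below all controls on every mutant array, and the general mean of mutant replicate 1 lay above that of control replicate 3.

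Brown minus general, the deviation was -0.04, -0.07 and -0.11 on the mutant arrays, against -0.22, 0.10 and 0.12 on the control arrays. The mutant arrays all lay within the control range in this measure, but with the median over members in place of the mean, mutant replicate 1 at -0.17 was below the lowest control at -0.12. The brown average hides members that moved apart. On mutant replicate 1, Ucp1 deviated by -0.96 and Ppargc1a by 1.10. Over the members that passed the filter the mean difference was -0.38 for the 4 brown markers and -0.42 for Adipoq and Lep.

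**Figure D2:**
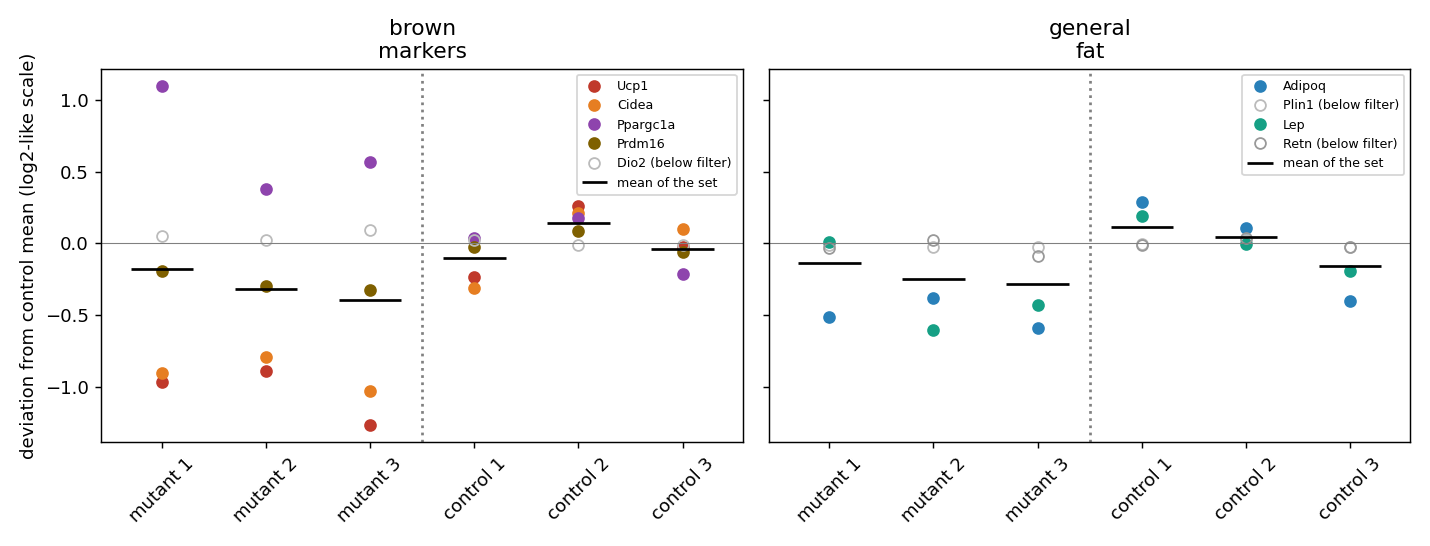
Deviation of each member from its own control mean (log2-like scale) on the 3 mutant and 3 control arrays, brown markers left and general fat markers right; filled points passed the brightness filter, open points did not, and black bars are the mean of the set. Ucp1 and Cidea lie together near -1 on the mutant arrays while Ppargc1a lies above 0, and the dim members stay near 0.

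Other genes of thermogenic fat were described by a list of 20 genes, of which 18 had a probe and 13 passed the filter. Of these 13, limma called 5 lower and 0 higher, with a median difference of -0.28. Over all tested genes the median was 0.01 and 17.6% were called lower. At an unadjusted p under 0.05 the counts were 7 lower and 2 higher, and the share of all tested genes at that cut was not counted. The median of the list was -0.18 without mutant replicate 3, -0.06 with all probes tested, -0.13 with array weights and with an average of skeletal muscle markers as a covariate, and -0.58 with the stricter filter. Without mutant replicate 3, and with all probes tested, 1 gene was called higher, with array weights 2 were, and with the stricter filter 3 were called lower. The members that fell were Cox8b, Cox7a1, Slc36a2, Pank1 and Fabp3. The brightness filter left out Elovl3, Kcnk3, Zic1, Slc27a2 and Fgf21.

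Cox8b, the gene of a cytochrome c oxidase subunit form found in brown fat, heart and skeletal muscle, had 9.08, 9.34 and 9.34 on the mutant arrays, against 10.70, 11.54 and 10.85 on the control arrays. The groups lay far apart, with a difference of -1.77 (SE 0.216, limma adjusted p = 0.00116). Cox7a1, another oxidase subunit gene of the same tissues, had 9.34, 9.59 and 9.82 on the mutant arrays, against 10.91, 11.31 and 11.10 on the control arrays. Its difference was -1.52 (SE 0.148, limma adjusted p = 4.27e-04). The highest mutant array was below the lowest control array by more than 1 unit in both genes.

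Slc36a2, an amino acid transporter listed here as a brown adipocyte gene, had 8.47, 8.38 and 8.43 on the mutant arrays, against 9.68, 9.61 and 9.80 on the control arrays. With a difference of -1.27 (SE 0.064, limma adjusted p = 2.77e-05) it had the smallest adjusted p in the list. Its deviations from the own group mean had r of -0.40 with Ucp1, -0.16 with Cidea and -0.76 with Adipoq. Which cells of the nerve gave the Slc36a2 signal was not tested. Pank1, which starts the synthesis of coenzyme A, was at 8.72 in mutants and 9.60 in controls (-0.87, adjusted p = 7.41e-05), and a dimmer tested probe of Pank1 differed by -0.14 with an interval that includes 0. Fabp3, the fatty acid carrier of heart and muscle that is also made in brown fat, was at 8.61 in mutants and 9.23 in controls (-0.62, adjusted p = 0.0375). The Fabp3 call was lost without mutant replicate 2 (0.0552) or 3 (0.0932), without control replicate 1 (0.058) and with all probes tested (0.103). Ebf2, a factor that marks brown precursors and was named after its values were seen, was at 10.38 in mutants and 10.05 in controls and was not called (adjusted p = 0.0537).

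Of a list of 25 further adipocyte genes, 23 had a probe and 19 passed the filter. The filter left out Fabp4, Cd36, Lgals12 and Trarg1, with means over all arrays of 8.12, 8.16, 8.10 and 8.30. A change in them may not have been detectable. In this list limma called 3 lower and 0 higher (8 and 0 at an unadjusted p under 0.05), with a median difference of -0.15. The 3 were 15.8% of the tested genes of the list, where 17.6% of all tested genes were called lower. The share of all tested genes at the unadjusted cut was not counted, so the 8 and 0 have no background. With the replicate block 5 fell, with array weights 9 fell and 1 rose, and without mutant replicate 1, 5 fell. Without control replicate 1 or 2, or with the stricter filter, 1 fell. Over all tested probes 2932 were called lower in the main fit, 2858 with the block, 4483 with array weights and 3470 without mutant replicate 1. Without control replicate 1 or 2 they were 2025 and 2144, and with the stricter filter 1937. Pnpla2, the lipase that begins triglyceride breakdown, was at 11.89 in mutants and 12.48 in controls (-0.59, limma adjusted p = 0.00645). Adig, or adipogenin, was at 8.75 in mutants and 9.26 in controls (-0.51, 0.024), a call lost without control replicate 1 (0.0735) or 2 (0.0824) and with all probes tested (0.0649). Rbp4, the retinol carrier secreted by liver and fat, was at 8.28 in mutants and 8.49 in controls (-0.21, 0.0213) and passed the filter through the controls. The Rbp4 call was lost without mutant replicate 2 (0.0529) and without control replicate 1 (0.0573), 2 (0.0772) or 3 (0.0524). Pparg, the master regulator of adipocyte differentiation, named after its values were seen, was at 9.14 in mutants and 9.16 in controls (95% interval of the difference -0.35 to 0.30), and that difference changes sign with the processing.

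**Figure D3:**
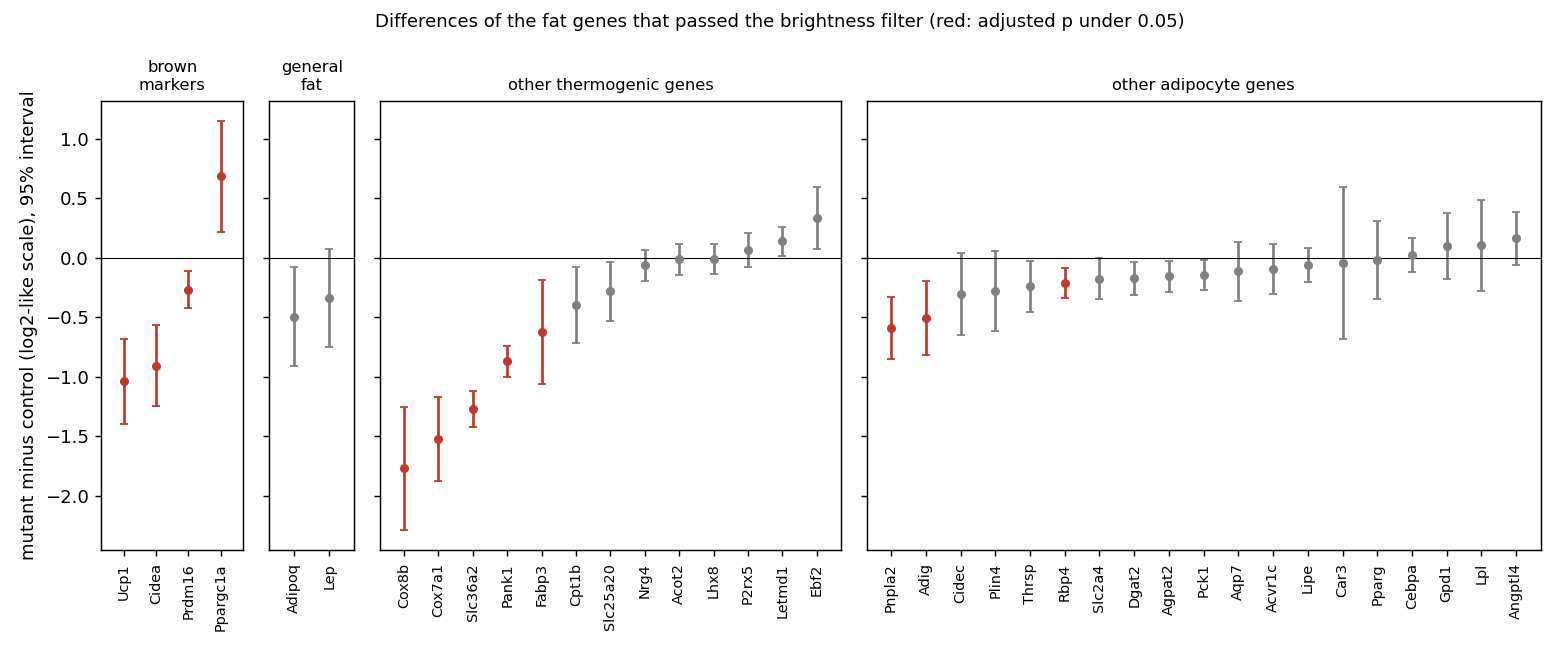
Mutant minus control difference (log2-like scale) with its 95% interval for the fat genes that passed the brightness filter, in 4 panels, with red for an adjusted p under 0.05. The largest falls are Cox8b at -1.77 and Cox7a1 at -1.52 among the other thermogenic genes, Ppargc1a at 0.68 is the red point above 0, and 16 of the 19 other adipocyte genes are grey.

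Of 24 regulators of the thermogenic program, 15 passed the filter, of which 4 rose and 1 fell, with a median difference of 0.03. That was 33.3% of the tested regulators, where limma called 39.6% of all tested genes, 22% as higher and 17.6% as lower. With an array left out 1 to 3 rose, with all probes tested 2 rose, and with the stricter filter 0 rose. Ppargc1b, the close relative of Ppargc1a, went the other way from it. It had 8.37, 8.38 and 8.39 on the mutant arrays, against 8.65, 8.64 and 8.70 on the control arrays, a fall of 0.29 (limma adjusted p = 0.00374). Nrip1, a corepressor that holds back Ucp1 in white fat, was at 8.53 in mutants and 8.19 in controls (0.35, adjusted p = 0.0131) and passed the filter through the mutants. Its call was lost without control replicate 1 (0.0508), and without mutant replicate 1 or 3, or with the stricter filter, it was below the filter and not tested. Zfp516, a zinc finger activator of Ucp1, was at 8.78 in mutants and 8.49 in controls (0.29, adjusted p = 0.0133).

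The corepressor gene Tle3 (0.23, limma adjusted p = 0.0449) and Nrf1, a regulator of mitochondrial genes (0.21, 0.0474), rose by less. The Tle3 call was lost with all probes tested and in each fit that left out an array, except that without mutant replicate 1, and the Nrf1 call was lost under the same settings, with the stricter filter (0.0711) and with the mean-variance trend (0.0983). Of 11 beige and depot markers 5 passed the filter, and limma called 0 of them, where it called 39.6% of all tested genes. At an unadjusted p under 0.05 the count was also 0. The brightest were Hoxc9, a homeobox gene of posterior fat depots, at 9.47 in mutants and 9.51 in controls, and Shox2, at 9.02 in mutants and 9.16 in controls. With all probes tested 1 gene of the list, left out by the filter, was called higher. Of 13 adipocyte precursor genes 11 passed the filter, with a median difference of 0.09 and, at an unadjusted p under 0.05, 3 higher and 1 lower. Where limma called 22% of all tested genes higher, it called 3 of these 11 higher and 0 lower. They were Cebpb, an early factor of fat cell differentiation, at 0.68, Dpp4, a surface marker of stromal progenitors, at 0.45, and the platelet-derived growth factor receptor gene Pdgfrb at 0.36 (adjusted p = 0.00461, 0.00508 and 0.00463). Without mutant replicate 1, or without control replicate 3, 1 precursor gene was called lower.

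Markers of skeletal muscle, the neighbouring tissue, were read on the same arrays. Of 12 markers 11 passed the filter, and 2 of them fell, Myh1 and Mb (limma adjusted p = 0.00933 and 0.0258), where 17.6% of all tested genes were called lower. All 11 had a lower mean in mutants, with a median difference of -1.20. That median came to -0.60 in the fit that left out mutant replicate 3, and to -0.75 with control replicate 2 left out. With the replicate block 6 were called, and without mutant replicate 1, 5 were, as many as had an unadjusted p under 0.05 in the fit to all arrays. The Mb call was lost without mutant replicate 2 or 3, without control replicate 2 or 3 and with all probes tested (adjusted p from 0.0627 to 0.0904). Averaged over the 11 markers, the deviation from the control mean was -0.50, -0.74 and -2.35 on the mutant arrays, against -0.32, 0.75 and -0.43 on the control arrays. Mutant replicate 3 was far below the rest and control replicate 2 far above.

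The genes whose deviations from the own group mean were most like those of Ucp1 over the 6 arrays were Pgam2, Tnnt3, Tnnc2, Myoz1, Fbp2, Ttn, Cmya5 and Tnni2, with Pearson r from 0.92 to 0.95 among 1089 candidate genes. Tnnt3, Tnnc2 and Tnni2 encode troponins of fast muscle and Ttn the giant sarcomere protein titin. The 11 muscle markers had r with Ucp1 from 0.77 to 0.94. Over the 13 tested genes of the other thermogenic list, r with Ucp1 ran from -0.40 for Slc36a2 to 0.90 for Cpt1b, with a median of 0.60. Among the same candidates, which have an SD of at least 0.2 within groups, those most like Adipoq were Pabpn1, Tpm1, Pdgfrl, Myh11, Miat, Gucy1a1, Ccl27a and Actn1, with r from 0.88 to 0.93. Nrg4 and the glycerol channel gene Aqp7, under that SD, had the highest r with Adipoq in their fat lists, 0.96 each. In the other thermogenic list r with Adipoq ran from -0.76 to 0.96, with a median of 0.18. In the other adipocyte list it ran from -0.71 to 0.96, with a median of 0.51. Nrg4 was dim, at 8.35 in mutants and 8.41 in controls. Myh11 is the myosin of smooth muscle. Between Adipoq and the muscle markers r ran from -0.49 to 0.45, and between Adipoq and Ucp1 it was 0.04. Of the 1089 candidates, 11 had r above 0.9 with Ucp1 and 3 with Adipoq, and how many would reach that by chance was not tested. All these r describe 6 arrays that share their processing.

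With the muscle average as a covariate, a setting chosen after the data were seen that leaves 3 residual degrees of freedom, Ucp1 differed by -0.76 (limma adjusted p = 0.0066) and Cidea by -0.74 (0.0238). Prdm16 was no longer called in that fit (-0.18, 0.124), nor were Fabp3 (-0.34, 0.227), Adig (0.101), Rbp4 (0.0884), Nrip1 (0.071), Tle3 (0.2) and Nrf1 (0.155). Cox8b, Cox7a1 and Slc36a2 differed by -1.61, -1.61 and -1.31, and Ppargc1a by 0.89 (0.0421). Every mutant array lay below every control array in the muscle average, so this fit cannot separate muscle content from genotype. Calls kept or lost in it therefore do not sort the genes by their muscle part. On bulk arrays fewer cells of a type and less RNA per cell cannot be told apart. The part of muscle RNA in the falls of the brown markers was not tested.

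**Figure D4:**
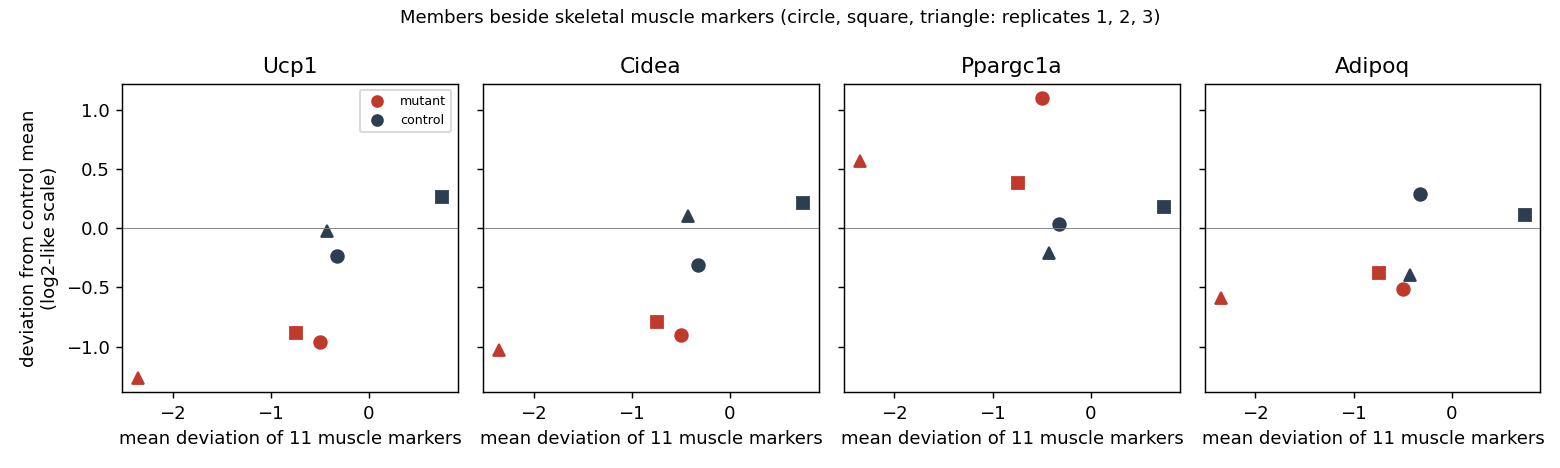
Deviation from the control mean (log2-like scale) of Ucp1, Cidea, Ppargc1a and Adipoq on the y axis, against the mean deviation of 11 skeletal muscle markers on the x axis, 1 point an array, with mutants in red and controls in dark blue. On the x axis mutant replicate 3 lies alone at -2.35 and control replicate 2 is highest at 0.75, and on the y axis the mutants are below all controls in Ucp1 and Cidea and above them in Ppargc1a.

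Markers of the other cells in the nerve were checked on the same arrays, where limma called 17.6% of all tested genes lower and 22% higher. Of 6 tested Schwann cell markers 3 fell (Mbp, Pmp22 and S100b) and Cdh19 rose, and Sox10, a factor of the whole lineage, was at 13.98 in mutants and 13.94 in controls. Among 7 fibroblast and perineurial markers Lum, Col1a1 and Itgb4 rose and limma called 0 lower (4 higher and 0 lower at an unadjusted p under 0.05), with a median of 0.33. Of 4 tested endothelial markers 1 fell, the vascular receptor gene Flt1, by 0.39 (limma adjusted p = 0.0393), a call lost without mutant replicate 2 or 3, without control replicate 1 or 2 and with all probes tested (adjusted p from 0.0948 to 0.12), and with the muscle covariate (-0.20, 0.237). With the replicate block 1 endothelial marker was called higher. Of 4 tested macrophage markers limma called 0, with 1 higher at an unadjusted p under 0.05. They included Lyz2 at 11.49 in mutants and 11.41 in controls and Adgre1 at 10.65 in mutants and 10.42 in controls, the last of which was called higher with the replicate block (0.0359). Of 2 tested red blood cell markers limma called 0, with 0 also at an unadjusted p under 0.05, and Hba-a1 was at 13.60 in mutants and 14.13 in controls and Alas2 at 8.92 in mutants and 8.95 in controls. Hba-a1 differed by -0.53 and was called lower without mutant replicate 3 (-0.80, adjusted p = 0.0125), with array weights (-0.60, 0.015) and with the muscle covariate (-1.06, 0.00141), and it differed by -0.31 without mutant replicate 1. The part of these shifts in the values of the fat genes was not tested.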

How the data were processed

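Total RNA of 6 sciatic nerve samples was hybridised to Mouse WG-6 version 2 arrays. The deposited values are normalized between arrays on a log2-like scale, per the labels and the series' design text, which names limma and RMA; lumi 1.8.3 is listed in the submitters' processing notes. Whether the log2 scale is plain or variance-stabilised, and the background correction, are not given in the sources used here, and a variance-stabilised scale would understate changes of dim probes. Sorted columns differ by at most 0.000254. The number of arrays limits the precision.

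The design text kept 18420 of 45281 probes by present calls, not used here; the 18420 brightest by their mean on the 6 arrays were kept instead. Of all probes 34885 had 1 symbol, 18 several and 10378 none, and 0 symbols changed by a match to RefSeq GRCm38.p6. limma 3.58.1 in R 4.3.3 (lmFit, eBayes, two-sided, 4 residual and 2.63 prior degrees of freedom) compared mutant with control, with Benjamini-Hochberg adjustment over all tested probes. "Called" means an adjusted p under 0.05. Counts of a list at an unadjusted p under 0.05 stand without the share of all tested genes at that cut. No lean of a list is read from them. The brightest probe stood for a gene in a list.

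The members and lists were chosen with earlier results of these data known. Named genes were all members, up to 4 called genes of each list with the largest difference or else its 2 brightest, and the 8 genes most like Ucp1 and Adipoq with an SD of at least 0.2 within groups. Fabp3, Nrf1, Ebf2, Pparg, Cpt1b, Nrg4 and Aqp7 fall outside that rule and were named after their values were seen. Sox10 and the genes given as left out by the filter fall outside it as well. Same-numbered mutant and control arrays had deviations that correlated at 0.17, 0.15 and 0.22, so the replicate number was also fitted as a block. Alternatives were other filters, the block, a mean-variance trend, array weights, requantiling, each array left out and a muscle covariate. The fit was tested on simulated data.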

Additional observations from a re-analysis of the deposited data

How the results depend on the processing

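Ucp1 and Cidea kept their direction and their call in all 13 alternatives that tested them, from -1.16 to -0.76 and from -1.06 to -0.74. The stricter filter of 10000 probes tested neither, since both rank just below it, which leaves 1 member called lower there; with array weights 5 were. Ppargc1a was not called with all probes tested (0.68, limma adjusted p = 0.0962), which leaves 0 members higher there, and ran from 0.47 to 0.84 with each array left out in turn, with 0 to 1 members called higher and 2 to 4 lower. In those fits Prdm16 ran from -0.31 to -0.23, Adipoq from -0.70 to -0.35 and Lep from -0.51 to -0.21. With the muscle covariate Prdm16 was at -0.18. Adipoq was called lower with the replicate block (-0.50) and with array weights (-0.50), and Lep with array weights (-0.61). The block changed no other member's call. The mean of the general fat markers was -0.42 when Plin1 and Retn, below the filter, were left out. Over all tested probes 6596 were called in the main fit and 7468 without mutant replicate 1. With the stricter filter 4387 were called, 1937 of them lower, and with array weights 9736 were called, 4483 of them lower. Differences near 0 changed sign: with each array left out in turn Pparg ran from -0.13 to 0.092, Hoxc9 from -0.15 to 0.12 and Alas2 from -0.16 to 0.12, Pparg was at 0.23 with the muscle covariate and Hoxc9 at 0.032 with array weights. Except where a filter or a missing array removed probes or samples, the cause was not tested. Dio2, Plin1 and Retn lie so near the dim end that a change in them may not have been detectable.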
